A study of Homo sapiens with 3 samples.

Results

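Transcripts recovered with the Flag-tagged RNA-binding protein MEX3A were compared with those of an IgG precipitate for the genes that the annotation calls processed transcript, snoRNA, snRNA or misc_RNA. Rows with 1 of these 4 gene types and at least 20 expected counts summed over both libraries were taken. There were 79, of 10796 rows of any type that reached 20 counts and 57820 rows in all. They comprised 65 of 515 processed transcripts, 10 of 1457 snoRNA rows, 1 of 1916 snRNA rows and 3 of 2034 misc_RNA rows. They were chosen by gene type and summed count, so their abundance is no finding. Just inside the limit were AC013394.2 and RP11-177H13.2, with sums of 20 and 20.8 counts, and just outside it ERVK3-1 and RP11-793H13.8, with sums of 19.9 and 19.8.

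Both libraries came from ACHN, a cell line of human renal carcinoma, made to overexpress MEX3A-Flag stably. The labels do not say whether it was 1 clone. The Flag group is 1 library from an anti-Flag precipitation, and the IgG group is 1 library labelled with the antibody IgG. Cells of both groups carry MEX3A-Flag, and the protocol in the labels describes only the anti-Flag precipitation. It has formaldehyde crosslinking of the cells and an oligo(dT) selection of mRNA ahead of fragmentation. Input RNA was not analysed here, and levels in the cells were not used. With 1 library in each group no difference has a replicate check, and in such bulk RNA fewer cells with a transcript and less of it per cell cannot be told apart.

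Total counts were 5498124 for Flag and 3412864 for IgG. Of the renal epithelial markers, PAX8 stood at 460 CPM (a row's count over the library's total, on the same scale in both libraries) in Flag and 307 CPM in IgG, and PAX2, LHX1, KRT8, KRT18, HAVCR1 and VIM had counts in both, while CDH6 had 0 in both. The leukocyte gene PTPRC, the T cell gene CD3E and the hepatocyte gene ALB had 0 counts in both libraries, and the fibroblast gene COL1A1 stood at 159 CPM in Flag and 187 CPM in IgG. MEX3A had 103 counts in Flag and 5 in IgG (ratio 12.8, 5.31 to 40.2). Of all 10796 rows, 3098 were enriched in the Flag library and 143 depleted, and the median of Flag CPM over IgG CPM was 1.93. With TMM scaling 1293 were enriched and 662 depleted, since it lowers every log2 ratio by 0.78, so a ratio is best read against the median row. A row was called enriched where the exact 95% Clopper-Pearson interval of this ratio lay wholly above 2, and depleted where it lay wholly below 0.5. The intervals and floors cover counting error only, because no molecular identifiers are described and PCR copies cannot be told from separate molecules.

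Small nucleolar RNAs guide the chemical modification of ribosomal RNA. Box C/D snoRNAs (SNORD) direct 2'-O-methylation and box H/ACA snoRNAs (SNORA) pseudouridylation, and their relatives in Cajal bodies, the scaRNAs, act on spliceosomal snRNAs. Most human snoRNAs are cut from introns of host genes. In GAS5 and the SNHG (small nucleolar RNA host gene) family the spliced, polyadenylated host transcript encodes no known conserved protein, and several such hosts start with a pyrimidine tract like that of ribosomal protein mRNAs. 7SK RNA, which restrains the elongation factor P-TEFb, and 7SL RNA, the scaffold of the signal recognition particle, are abundant products of RNA polymerase III. Mature snoRNAs, 7SK and 7SL carry no long poly(A) tail.

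The snoRNA rows lay low in the Flag library, and of the 7 GAS5 and SNHG rows of the 4 gene types all but SNHG14 lay below the median row. The enriched rows were all among the 65 processed transcripts, of which they made up 16.9%. In all, 11 of the 79 rows (13.9%) were enriched, against 28.7% of all rows with 20 counts. Another 7 (8.86%) were depleted, against 1.32%. With TMM scaling 7 members were enriched and 18 depleted. The interval lay wholly below 1 for 18 of them (22.8%), against 8.99% of all rows, and wholly above 1 for 30, against 58.1%. Their median log2 ratio was 0.30, against 0.95 over all rows. Both libraries' member counts were mostly 2 RNAs, since RN7SL2 and RN7SK made up 84.9% of them in Flag and 88.6% in IgG.

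**Figure D1:**
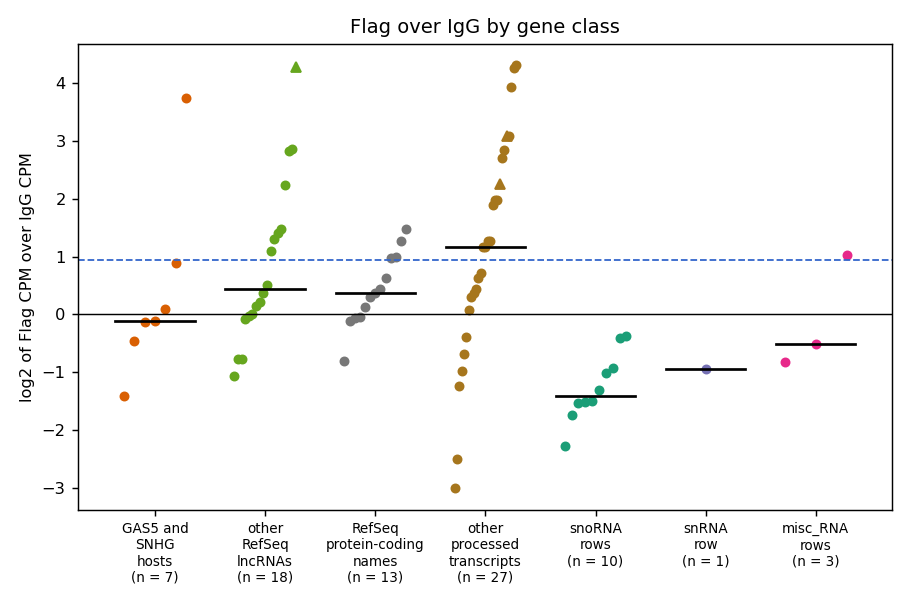
Log2 ratio of Flag CPM to IgG CPM (vertical axis) for each of the 79 rows, spread sideways by rank within its class; black bars are class medians, the dashed line is the median of all 10796 rows, and triangles mark rows with 0 IgG counts drawn at the floor of 3 counts. The 10 snoRNA rows all lie below 0, while the processed transcripts run from -3.01 to 4.31.

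Among host genes, SNHG14 differed from the other 6. SNHG14, the long transcript of the imprinted SNURF-SNRPN region that holds the SNORD115 and SNORD116 clusters, had 1751 counts in Flag, against 81 in IgG. These are 318 CPM for Flag and 23.7 CPM for IgG, a ratio of 13.4 (95% counting interval 10.7 to 17.0). SNHG14 was the only host enriched, 1 of 7 (14.3%), against 28.7% of all rows. Its TPM, the authors' length-scaled abundance, was 127 in Flag and 13.1 in IgG, a ratio of 9.66 after 0.1 was added to both. GAS5, a growth arrest transcript that is degraded by nonsense-mediated decay when translated, had 171 counts in Flag and 115 in IgG, or 31.1 CPM in Flag and 33.7 CPM in IgG. The ratio of GAS5 was 0.923 (0.725 to 1.18), so with library totals as the scale it did not differ from 1 beyond counting error, and with TMM scaling it was 0.538.

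SNHG16, the host of SNORD1 snoRNAs, was much like GAS5, with 142 counts in Flag and 96 in IgG (ratio 0.918, 0.704 to 1.20). SNHG17, the host of SNORA71 snoRNAs, had 35 counts in Flag and 30 in IgG (0.724, 0.432 to 1.22), and SNHG5, the host of SNORD50, had 19 Flag and 11 IgG counts (1.07, 0.485 to 2.49). None of these 3 intervals excluded 1. SNHG6, the host of SNORD87, was higher in the Flag library, at 57 counts against 19 in the IgG library (1.86, 1.09 to 3.31), without reaching the call. SNHG1, which holds a series of SNORD snoRNAs, was the only host with its interval below 1, at 41 counts in Flag, against 68 in IgG (0.374, 0.248 to 0.559). It missed the call of depletion by its upper bound, and its TPM of 10.4 in Flag, against 33.6 in IgG, gave a ratio of 0.313.

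Summed over the 7 host rows, the ratio was 3.28 (2.95 to 3.64, 2216 Flag counts and 420 IgG counts). SNHG14 supplied 79.0% of the Flag and 19.3% of the IgG counts of that sum. Without it the ratio was 0.851 (0.739 to 0.982), from 465 Flag and 339 IgG counts. The hosts' median log2 ratio was -0.12, against 0.95 for all rows. All hosts other than SNHG14 lay below the median row. With TMM scaling SNHG14 stood at 7.82, and SNHG5 at 0.625 moved below 1.

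The annotated start sites of 6 of the 7 hosts are shown because SNHG14 differs from the others in ratio, and SNHG6 is not shown. Each window runs from 40 bases before to 30 bases from the start site that RefSeq gives on build GRCh38.p14, which need not be the start of the deposited transcript. Capitals mark a run of at least 5 bases that are each C or T beginning within the first 10 transcribed bases and, where present, TATAA between 40 and 15 bases before the start, both on the sense strand only.
SNHG1 (chr11:62855856-62855925, minus strand): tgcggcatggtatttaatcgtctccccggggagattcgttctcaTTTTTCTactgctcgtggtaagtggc
SNHG5 (chr6:85678704-85678773, minus strand): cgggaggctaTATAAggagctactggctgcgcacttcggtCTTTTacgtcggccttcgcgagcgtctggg
SNHG16 (chr17:76557724-76557793, plus strand): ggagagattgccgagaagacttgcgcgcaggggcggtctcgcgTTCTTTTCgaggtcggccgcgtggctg
SNHG17 (chr20:38435299-38435368, minus strand): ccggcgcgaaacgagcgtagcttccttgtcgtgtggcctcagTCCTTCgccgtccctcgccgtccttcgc
GAS5 (chr1:173869016-173869085, minus strand): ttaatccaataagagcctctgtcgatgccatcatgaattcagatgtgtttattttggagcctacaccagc
SNHG14 (chr15:24823568-24823637, plus strand): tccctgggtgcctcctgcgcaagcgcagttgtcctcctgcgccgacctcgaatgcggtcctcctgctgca
The run was found in SNHG1, SNHG5, SNHG16 and SNHG17 and not in these windows of GAS5 and SNHG14. Of all 35116 RefSeq promoter windows 26.3% held such a run, and of 85 windows of cytosolic ribosomal protein genes 72.9%. TATAA stood before SNHG5, and before 3.91% of all windows.

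Of other RNAs of the same locus, UBE3A, SNURF and SNORD116-20 had intervals below that of SNHG14, while the interval of SNRPN had no upper limit. UBE3A, the ubiquitin ligase gene to which SNHG14 runs antisense, had 333 counts in Flag and 53 in IgG (3.90, 2.91 to 5.32, enriched). The strand setting of the counting is not given in the sources used here, so reads of such a pair cannot be told apart. SNHG14 and UBE3A both had whole counts, so the counts themselves show no reads divided between them. The sum of both rows was 9.65-fold higher in Flag (8.10 to 11.6). SNURF had a ratio of 1.18 (0.829 to 1.70), while SNRPN had 22 Flag counts and 0 IgG counts, at least 4.55-fold higher in Flag (lower bound 3.40, enriched). Both rows had fractional counts. SNORD116-20, a row of 1236 bases that the files call lincRNA, had 140 Flag and 93 IgG counts (0.934, 0.714 to 1.23).

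Further snoRNA hosts stood under other names or other gene types. C17orf76-AS1, whose RefSeq name is SNHG29, had 156 Flag and 102 IgG counts (0.949, 0.735 to 1.23), and LINC00338, whose RefSeq name is SNHG20, had 29 Flag and 14 IgG counts (1.29, 0.658 to 2.63), both with fractional counts. SNHG3, SNHG7, SNHG8, SNHG12 and SNHG15, which the files call sense_intronic, antisense or lincRNA, had ratios from 0.619 (SNHG3) to 2.24 (SNHG7), and 0 of these 5 were called. ZFAS1, the host of SNORD12 snoRNAs, was typed antisense and was 4.93-fold higher in Flag (3.01 to 8.56, 143 Flag and 18 IgG counts). EPB41L4A-AS1, typed lincRNA, was enriched too, on 25 Flag counts and 1 IgG count with fractional counts (15.5, 2.54 to 637). DANCR, the host of SNORA26, had 0 Flag and 6 IgG counts and did not reach 20.

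All 10 snoRNA rows had ratios below 1, against 2368 of all 10796 rows, and 5 were depleted, against 1.32% of all rows. Their median log2 ratio was -1.40, against 0.95 for all rows, and their sum had a ratio of 0.493 (0.471 to 0.515, 3468 Flag counts and 4369 IgG counts). In 9 of the 10 the interval lay wholly below 1, against 8.99% of all rows. Of the hosts, SNHG1 and SNHG17 lay below the highest snoRNA ratio, that of SNORA53, and the other 5 lay above it.

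The most abundant was SCARNA7, with 1234 counts in Flag and 1014 in IgG, or 224 CPM in Flag and 297 CPM in IgG. Its ratio of 0.755 (0.695 to 0.822) was the highest among the 5 scaRNA rows. SCARNA5 had 552 Flag and 846 IgG counts (0.405, 0.363 to 0.451, depleted), and SCARNA6 had 178 Flag and 314 IgG counts (0.352, 0.291 to 0.424, depleted). SCARNA13, with 211 Flag and 436 IgG counts, was 3.33-fold lower in the Flag library (ratio 0.300, 0.254 to 0.355). SCARNA12 came to 314 Flag and 395 IgG counts (0.493, 0.424 to 0.574), not called, with fractional counts.

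Among the nucleolar members the box C/D row SNORD17 had 332 counts in Flag and 584 in IgG, and was 2.83-fold lower in the Flag library (ratio 0.353, 0.308 to 0.404). SNORA73B, a box H/ACA RNA, had 599 Flag and 708 IgG counts (0.525, 0.470 to 0.586), which missed the call. SNORA74A, with 9 Flag and 27 IgG counts, had the lowest ratio of the 10, 0.207 (0.0856 to 0.453, depleted, a call lost with a 99% interval). SNORA23 had 14 Flag and 25 IgG counts (0.348, 0.167 to 0.695) and SNORA53 25 Flag and 20 IgG counts (0.776, 0.414 to 1.47), neither called. SNORA53 was the only snoRNA row whose interval reached 1.

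**Figure D2:**
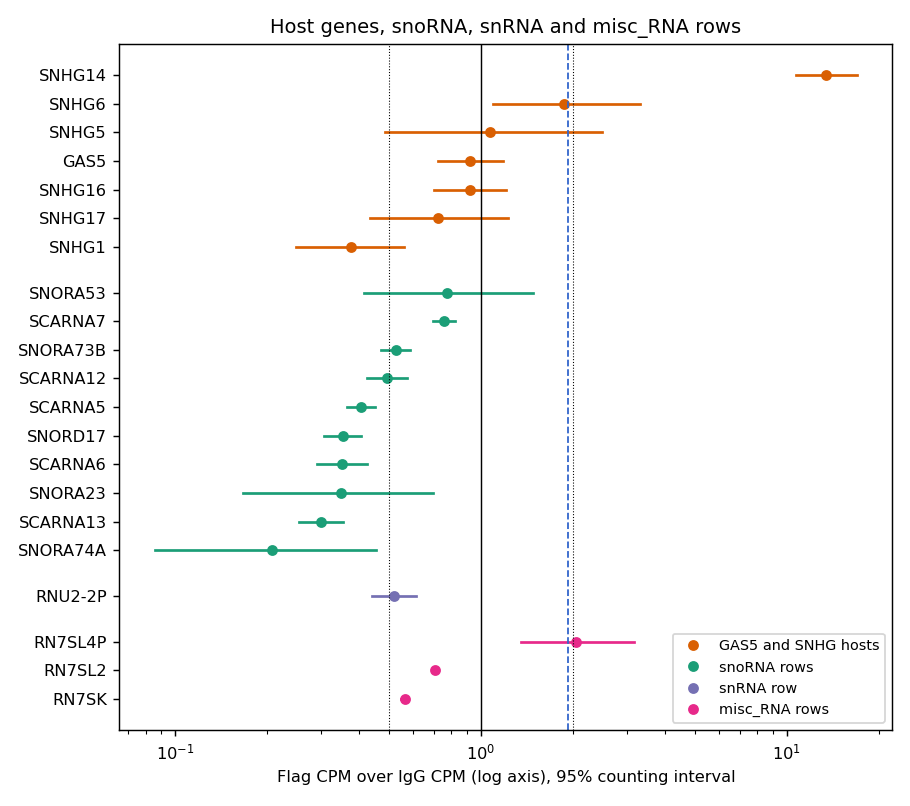
Ratio of Flag CPM to IgG CPM (log axis) with its 95% counting interval for the 7 GAS5 and SNHG host rows, the 10 snoRNA rows, the snRNA row and the 3 misc_RNA rows; the solid line marks 1, the dotted lines 0.5 and 2, and the dashed line the median of all rows, 1.93. SNHG14 stands alone at 13.4, and the snoRNA rows run from 0.207 to 0.776.

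The shortest RNAs had no counts at all. Of 1369 snoRNA rows with a length up to 170 bases, 0 had any count in either library, and the same held for all 8645 rows of any type up to that length. The deposited effective length, which is the length less the fragment length, was 0 in both libraries for 93.5% of snoRNA rows and 91.2% of snRNA rows, so a listing at 0 is no measurement of them. All 5 snoRNA rows above 250 bases had counts, as did 7 of 83 between 170 and 250. The 10 snoRNA rows described here are thus all longer than 170 bases. Excluding SNHG14, the RefSeq spans of the hosts, with C17orf76-AS1 and LINC00338, hold 21 snoRNAs named in the files, of which 0 had a count and 20 had an effective length of 0.

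The snoRNA rows could instead be set beside the genes whose RefSeq spans hold them. In 10 of 11 such pairs the snoRNA's ratio was below that of the gene, and in 9 the counting intervals did not overlap. All 10 snoRNA ratios were below 1 and 8428 of all 10796 rows lay above 1, so most genes would lie above them. Of the 10 distinct genes in these pairs 3 were enriched, against 28.7% of all rows. SNORA23 (0.348) lies in IPO7, which encodes importin 7 and had 1007 Flag and 180 IgG counts, a ratio of 3.47 (2.96 to 4.09). SCARNA7 (0.755) lies in KPNA4, which encodes an importin alpha and had a ratio of 3.09 (2.44 to 3.95). SNORD17 (0.353) lies in SNX5, which encodes a sorting nexin and had a ratio of 1.89 (1.40 to 2.59). SCARNA5 and SCARNA6 both lie in the autophagy gene ATG16L1, which stood at 1.01 (0.715 to 1.43).

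SCARNA12 (0.493) was set beside PHB2, a prohibitin gene, at 0.922 (0.773 to 1.10). SNORA74A (0.207) lies within the span of MATR3, at 0.839 (0.717 to 0.983). SNORA73B (0.525) lies in the span of RCC1, the Ran exchange factor gene, which was 8.83-fold higher in Flag (6.90 to 11.5), and also in SNHG3, at 0.619 (0.532 to 0.720). The SNHG3 row is itself only 209 bases long in Flag and 208 in IgG, and its interval overlapped that of SNORA73B. SNORA53 (0.776) did not differ beyond counting error from SLC25A3, the mitochondrial phosphate carrier gene, at 0.705 (0.593 to 0.839). SCARNA13 (0.300) was set beside SNHG10, whose ratio of 4.03 rested on 13 Flag and 2 IgG counts.

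**Figure D3:**
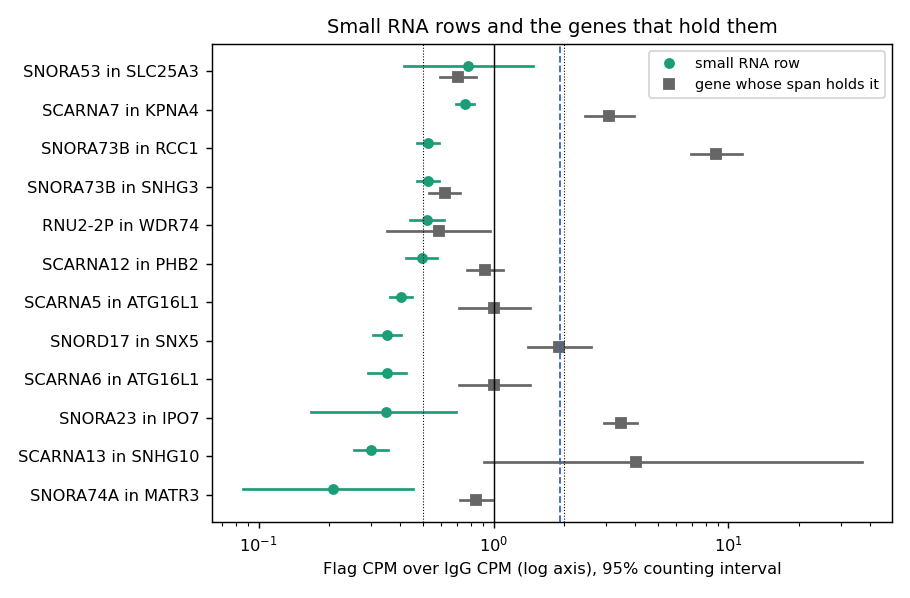
Ratio of Flag CPM to IgG CPM (log axis) with 95% counting intervals for each snoRNA or snRNA row (circles) above the gene whose RefSeq span holds it (squares). The circles lie left of the squares in every pair but SNORA53 in SLC25A3, where 0.776 stands beside 0.705.

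The single snRNA row, RNU2-2P, whose RefSeq name is RNU2-2, belongs to the U2 family that recognises the branch point in splicing. It had 264 counts in Flag and 316 in IgG, a ratio of 0.519 (0.439 to 0.613), and fell short of the call. WDR74, whose span holds it, had a similar ratio of 0.585 (0.353 to 0.970).

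The misc_RNA rows were 7SL and 7SK RNAs. RN7SL2 had 45659 counts in Flag and 40215 in IgG, or 0.830% of Flag and 1.18% of IgG counts. Its ratio was 0.705 (0.695 to 0.714). RN7SK had 10442 Flag and 11529 IgG counts, or 1899 CPM in Flag and 3378 CPM in IgG, and a ratio of 0.562 (0.547 to 0.577). Both were lower in the Flag library beyond counting error, and neither reached the call. The near copy RN7SL4P had 102 Flag and 31 IgG counts and a ratio of 2.04 (1.35 to 3.16) with fractional counts, while RN7SL1, typed antisense, had 0.682 (0.674 to 0.690). RSEM-type counting divides reads among such copies, and the sum of RN7SL1, RN7SL2 and RN7SL4P gave 0.692 (0.686 to 0.698).

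The 3 misc_RNA rows together had a ratio of 0.674 (0.666 to 0.682, 56203 Flag counts and 51775 IgG counts), between the snoRNA sum of 0.493 and the host sum without SNHG14 of 0.851. The median log2 ratio was -1.40 for snoRNAs, -0.50 for misc_RNA rows and -0.12 for hosts. These values compare rows within 1 pair of libraries, and the differences between the classes were not tested.

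**Figure D4:**
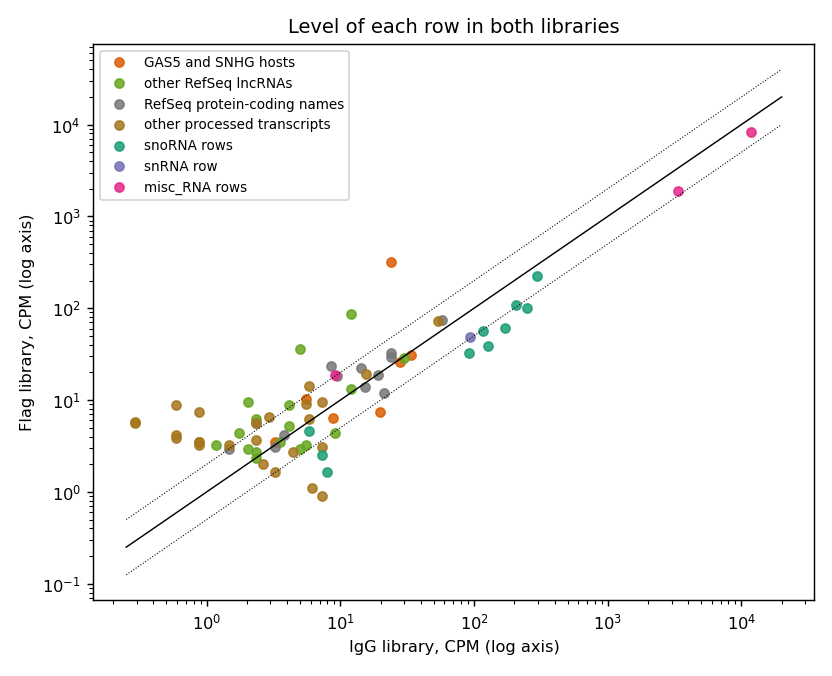
CPM in the Flag library (vertical, log axis) against CPM in the IgG library (horizontal, log axis) for the 76 rows with an IgG count, coloured by class; the solid line is a ratio of 1 and the dotted lines are ratios of 2 and 0.5. RN7SL2 and RN7SK lie at the upper end just below the line, and SNHG14, at 318 CPM in Flag and 23.7 CPM in IgG, lies farthest above it among rows over 20 CPM in the IgG library.

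Similar small RNAs outside the 4 gene types had ratios on the same side. There were 10 such rows with 20 counts, named SNORA, SNORD or SCARNA, RN7SL1, RMRP, RPPH1 or TERC. All 10 were below 1, against 2368 of all 10796 rows. Of the 10, 2 were depleted and 0 enriched, against 1.32% and 28.7% of all rows. They include SNORD116-20, whose row is 1236 bases long and whose interval reached 1 (0.934, 0.714 to 1.23). SCARNA9 had 33 Flag and 69 IgG counts (0.297, 0.190 to 0.456). SCARNA10 was at 0.471 (0.420 to 0.527). TERC, the telomerase RNA, stood at 0.389 (0.282 to 0.532), and RMRP, the RNA of RNase MRP, at 0.530 (0.507 to 0.554). SNORD3A, the U3 snoRNA, had 36280 Flag and 38490 IgG counts (0.585, 0.577 to 0.594, with fractional counts), and RPPH1, the RNA of RNase P, was closest to 1 among those with intervals below it (0.921, 0.893 to 0.949).

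On the per-length scale of TPM, small RNAs had the highest levels among the members. RN7SL2 had 73409 TPM in Flag and 108360 TPM in IgG, RN7SK 12916 TPM in Flag and 23709 in IgG, and SNORA73B 4064 TPM in Flag and 8454 in IgG. GAS5 had 52.6 TPM in Flag and 61.7 TPM in IgG. The TPM of the shortest rows rest on effective lengths of few bases, as with SNORA23, at 11.2 bases in the Flag and 10.1 bases in the IgG library.

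The median ratio was higher in each longer class of genes. Among all rows with 20 counts the median log2 ratio was -0.54 for the 51 up to 400 bases long, 0.49 for 1212 up to 1000 bases, 0.77 for 3974 up to 2000 bases, 1.10 for 3929 up to 4000 bases and 1.28 for 1630 above. The 15 rows of the 4 gene types up to 400 bases had a median of -0.95, and 13 of them were below 1. The 36 other rows of that length had a median of -0.23, with 20 below 1, and they include RN7SL1, SNORD3A, RMRP and SCARNA10. The part of length in the snoRNA ratios was not tested. In the classes above 400 bases the medians of the members were 0.50, 1.09, 0.38 and 0.99.

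**Figure D5:**
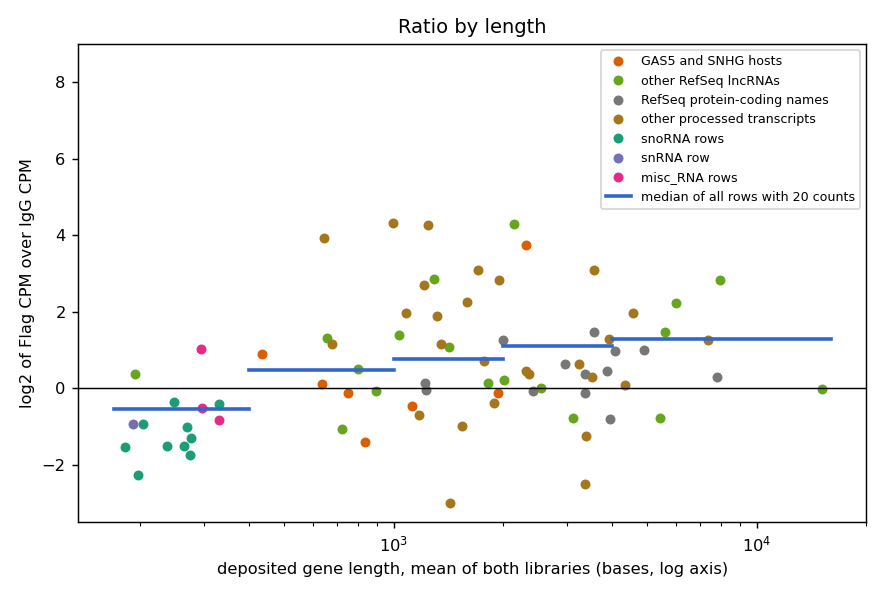
Log2 ratio of Flag CPM to IgG CPM (vertical) against deposited gene length, the mean of both libraries (horizontal, log axis), for the 79 rows; blue bars are medians of all rows with 20 counts in 5 length classes, which run from -0.54 to 1.28, and rows with 0 IgG counts are drawn at the floor of 3 counts. The snoRNA, snRNA and misc_RNA rows all lie under 400 bases, with 1 of 14 above 0.

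The processed transcripts other than hosts were 58 rows with a wide spread. Of these, 10 (17.2%) were enriched, against 28.7% of all rows, and 2 (3.45%) were depleted, against 1.32%. Their median log2 ratio was 0.63, against 0.95 for all rows. By RefSeq, 18 of them are long noncoding RNAs, 13 carry names of protein-coding genes and 27 are pseudogenes, of another class or not matched. The protein-coding names had 0 calls in either direction and a median of 0.38.

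Of the 18 long noncoding RNAs, 4 (22.2%) were enriched, against 28.7% of all rows. OIP5-AS1, known as cyrano, which binds the microRNA miR-7 and the RNA-binding protein HuR, had 471 counts in Flag and 41 in IgG. It was 7.13-fold higher in Flag (5.18 to 10.1), with TPM of 12.4 in Flag and 1.37 in IgG. MAGI2-AS3, antisense to the scaffold gene MAGI2, had 198 Flag and 17 IgG counts and was 7.23-fold higher (4.40 to 12.7). WDFY3-AS2 had 53 Flag and 7 IgG counts (4.70, 2.13 to 12.3), a call lost with TMM scaling (2.74) and with a 99% interval. Of the genes they are named for, OIP5 had 4 Flag counts and 1 IgG count, and MAGI2 had 4 Flag counts and 0 IgG counts.

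The readthrough row DYX1C1-CCPG1 had 94 Flag counts and 0 IgG counts. At a floor of 3 IgG counts that is a ratio of 19.4, and the lower bound of the interval was 15.5. Its counts were fractional and its deposited length differed between the libraries, at 1359 bases in Flag and 2941 in IgG. Summed with its component genes DYX1C1 and CCPG1 it gave 4.33 (3.04 to 6.32, 251 Flag counts and 36 IgG counts).

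The other 6 enriched rows have clone-based names with no match in RefSeq. RP11-156P1.3 had 49 Flag and 2 IgG counts (15.2, 3.99 to 129), and RP11-137L10.6 had 32 Flag and 1 IgG counts (19.9, 3.32 to 809). RP11-144G6.12 had 31 Flag and 1 IgG counts (19.2, 3.21 to 784) and RP11-206L10.11 had 41 Flag and 3 IgG counts (8.48, 2.71 to 42.8). RP11-514P8.8 had 41 Flag counts and 0 IgG counts, at least 8.48-fold higher in Flag (lower bound 6.59). AC012307.3 had 23 Flag counts and 0 IgG counts, at least 4.76-fold higher (lower bound 3.57). With TMM scaling RP11-137L10.6, RP11-144G6.12 and RP11-206L10.11 lost the call. Of these 6, RP11-206L10.11 alone had whole counts, and fractional counts mean that reads were divided with further genes. Over all 11 enriched rows, 5 had whole counts and 8 had fewer than 100 counts over both libraries.

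The 2 depleted processed transcripts had fractional counts as well. DTX2P1-UPK3BP1-PMS2P11, a fused pseudogene, had 5 Flag and 25 IgG counts and was 8.06-fold lower in the Flag library (ratio 0.124, 0.0371 to 0.330). CTD-2517M14.5 had 6 Flag and 21 IgG counts (0.177, 0.0586 to 0.454), a call lost with a 99% interval. GUSBP11 (0.422, 0.214 to 0.813) and PVT1, the oncogenic lncRNA next to MYC (24 Flag and 31 IgG counts; 0.481, 0.270 to 0.846), had intervals below 1 and were not called.

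MAP3K14, which encodes the NF-kappa-B inducing kinase, had 66 Flag and 72 IgG counts (0.569, 0.401 to 0.806) and was not called. Ordered by the upper bound of the interval, MAP3K14 came before GUSBP11 and PVT1. Rows after these included ADIRF-AS1 (0.584), LINC00641 (0.588) and KCP (0.919), whose intervals reached 1. Of the most abundant of the 58 rows, OIP5-AS1 and MAGI2-AS3 were enriched, as given above, and 4 others had ratios between 1 and the median row. UHRF1, a reader of hemimethylated DNA, had 412 Flag and 197 IgG counts (1.30, 1.09 to 1.55), AC016683.6 had 402 Flag and 183 IgG counts (1.36, 1.14 to 1.63), CASP8AP2 had 180 Flag and 82 IgG counts (1.36, 1.04 to 1.79), and the histone methyltransferase gene KMT2B had 162 Flag and 82 IgG counts (1.23, 0.935 to 1.62). All 4 lay below the median row at 1.93, and with TMM scaling they ran from 0.715 (KMT2B) to 0.795. ZNF518A had the highest ratio of the protein-coding names, 2.78 (1.85 to 4.32), and JRK had 1.54 (1.10 to 2.20). The 46 rows of these 58 that were not called ran from 0.422 to 7.14, the last being AC073130.1 with 23 Flag and 2 IgG counts. One of them carries the name SNORA67 but is 4554 bases long, with 19 Flag and 3 IgG counts (3.93, 1.16 to 20.7), so its counts are not those of the snoRNA alone.

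The deposited lengths, which weight isoforms by the reads assigned to them, differed by more than 1.5 times between the libraries for 9 of the 79 rows. In AC016747.3 the length was 2020 bases in Flag and 691 in IgG, and its ratio was 2.23 by counts (1.09 to 5.05) but 0.618 by TPM. For the snoRNA, snRNA and misc_RNA rows the length was the same in both libraries.

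Genes for proteins that work with these RNAs were set beside them. Of 18 mRNAs for proteins of snoRNPs, the particles that snoRNAs form, and for their assembly, 3 were enriched and 0 depleted, with a median log2 ratio of 0.30. TGS1, which hypermethylates the cap of snRNAs and snoRNAs, was 10.6-fold higher in Flag (7.01 to 16.7), ahead of ZNHIT6 (2.99) and NOLC1 (2.53). FBL, the methyltransferase of box C/D particles, stood at 1.00 (0.761 to 1.33), DKC1, the pseudouridine synthase, at 1.39 and NOP56 at 0.526. Of 38 protein-coding snoRNA hosts with 20 counts, 4 were enriched (RCC1, RPL5, TAF1D and TPT1) and 0 depleted, with a median of -0.01. That list overlaps the ribosomal protein genes widely.

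Of the 6 signal recognition particle proteins 3 were enriched, namely SRP19 (10.6, 2.71 to 90.7, with 34 Flag and 2 IgG counts), SRP9 (4.78, 3.43 to 6.82) and SRP72 (4.70, 3.75 to 5.96), with a list median of 1.52, whereas the summed 7SL rows had a ratio of 0.692. Among 7 genes of the 7SK particle and P-TEFb, HEXIM1 alone was enriched (3.38, 2.88 to 3.97), and the list median was 1.08. Of 14 nonsense-mediated decay genes 2 were enriched (UPF3A at 2.94 by counts but 0.988 by TPM, and UPF3B at 3.91) and 1, UPF2, was depleted, at 0.319 (0.273 to 0.373), with a median of 0.78. The shares are to be read against 28.7% enriched and 1.32% depleted over all rows.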

How the data were processed

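Per the file headers, the deposited tables follow RSEM gene-level output and list expected counts, TPM, FPKM, length and effective length per Ensembl gene, with gene name and type. The authors' expected counts are estimated counts and are not normalized. The authors' TPM values were deposited as scaled by effective length to one fixed sum per library, and the deposited FPKM values were not used. Per the submitters' processing notes, RSEM and STAR were used with builds GRCh37 and hg19; versions, annotation release, filters and strandedness were not given there.

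Expected counts were rounded and divided by each library's total. Ratios are Flag over IgG with exact 95% Clopper-Pearson intervals of the Flag share (SciPy 1.17.1). A count of 0 was replaced by 3 counts, which is 0.546 CPM for Flag and 0.879 CPM for IgG, and is given as a bound. Fractional counts are those more than 0.01 from a whole number in either library. The calculation was tested on simulated data. No p-value was computed. Names and spans came from the RefSeq table of GRCh38.p14, which matched 57 of the 79 rows by symbol or synonym, and promoter sequences from RefSeq on the same build; no coordinates were taken across builds. Members and lists were chosen with earlier results of these data known. Named rows are all hosts and all snoRNA, snRNA and misc_RNA members, and of other processed transcripts the 10 enriched with the highest lower bounds, the 10 with the lowest upper bounds and the 8 most abundant; others were named after their values were seen. Alternatives were TMM (edgeR 4.0.16) and DESeq2 (1.42.0) size factors, library totals that leave out mitochondrial genes and the 10 most abundant genes of each library, other count minimums, TPM, whole counts only, a 4-fold threshold and a 99% interval.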

Additional observations from a re-analysis of the deposited data

How the results depend on the processing

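The direction of 0 called rows changed under TPM. The 4-fold threshold and the 99% interval leave the ratios as they are. The scalings shift every log2 ratio alike, by too little to bring a called row across 1, so these settings could turn no direction. Where 1 lies depends on the scaling: TMM lowered every log2 ratio by 0.78 and median-of-ratios scaling by 0.79. With library totals the summed ratios were 3.28 for hosts, 0.493 for snoRNAs, 0.674 for misc_RNA and 1.97 (1.87 to 2.07) for processed transcripts. TMM scaling gave 7 enriched and 18 depleted members (1293 and 662 of all rows), with summed ratios of 1.91 for hosts, 0.287 for snoRNAs, 0.393 for misc_RNA and 1.15 for processed transcripts, and median-of-ratios scaling gave 7 and 18 (1269 and 675 of all rows), with 1.89, 0.285, 0.390 and 1.14 in the same order. Both added calls of depletion for RN7SK, RN7SL2, RNU2-2P, SNHG1, PVT1, GUSBP11, MAP3K14, SCARNA7, SCARNA12, SNORA23 and SNORA73B and lost WDFY3-AS2, RP11-137L10.6, RP11-206L10.11 and RP11-144G6.12. Totals that leave out mitochondrial genes and the 10 most abundant genes of each library gave 12 depleted members (268 of all rows) and summed ratios of 2.60 for hosts, 0.391 for snoRNAs, 0.535 for misc_RNA and 1.56 for processed transcripts. TPM gave 22 enriched and 13 depleted members at a pseudocount of 0.1 (4776 and 710 of all rows) and 18 and 12 at 1 (4074 and 535), with no interval, and summed ratios of 1.60 for hosts, 0.439 for snoRNAs, 0.655 for misc_RNA and 1.39 for processed transcripts. A minimum of 100 counts left 30 members, 3 enriched and 4 depleted (2268 and 97 of 5980 rows), and a processed transcript sum of 2.07. With a minimum of 1 count there were 245 members, 15 enriched and 11 depleted (3228 and 218 of 17264 rows), and a processed transcript sum of 1.86. With whole counts only, 5 of 52 members were enriched (2664 of 9116 rows), the misc_RNA ratio, then RN7SK alone, was 0.562 and that of processed transcripts 2.38. A 4-fold threshold left 5 enriched and 0 depleted members (924 and 24 of all rows). A 99% interval left 10 enriched and 5 depleted members (2535 and 115 of all rows), without WDFY3-AS2, SNORA74A and CTD-2517M14.5. WDFY3-AS2 also lost its call with the reduced totals and the 4-fold threshold. In alternatives chosen after seeing the data, the host sum was 0.851 without SNHG14, so its direction turned, and 1.99 with SNHG rows of other gene types, and the processed transcript sum without SNHG14 was 1.47. No paired analysis was possible because each group has 1 library. Rows with few counts are limited by depth: 49 of the 79 had fewer than 100 counts over both libraries.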

Other observations

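RefSeq places microRNA genes inside the spans of 9 of the 79 rows. DLEU2, the host of miR-15a and miR-16-1, had 16 Flag and 7 IgG counts, a ratio of 1.42 (95% counting interval 0.552 to 4.08). C1orf132, whose RefSeq name is MIR29B2CHG and which hosts miR-29b-2 and miR-29c, had 19 Flag and 12 IgG counts (0.983, 0.453 to 2.22). Both were named after their values were seen, and neither differed between the libraries beyond counting error. The microRNAs themselves are too short for the counts used here.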
